A study of Rattus norvegicus with 3 samples.

Results

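The major histocompatibility complex (MHC) genes of the rat, named RT1, and the genes that prepare peptides for them were described across 3 oral soft tissues. The members were the genes whose symbol begins with RT1- in the array annotation, and 22 named partners: B2m, the peptide loading genes, the interferon-inducible proteasome subunits, the transactivators Nlrc5 and Ciita, the class II chaperone and endosomal enzymes, Cd1d1 and the costimulatory genes Cd80, Cd83 and Cd86. This gave 40 of the 14217 genes on the arrays, 18 of them RT1 genes. Where a gene had more than 1 probe set (several short probes whose signals are combined into 1 value), the brightest over the 3 arrays stood for it.

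All animals were male wild type Sprague Dawley rats, 9 weeks old at harvest. Peri-implant connective tissue (PICT) lay around a titanium alloy implant set at once into the socket of an upper first molar, which had been extracted at 5 weeks of age, 4 weeks before harvest. Oral mucosal connective tissue (OMCT) came from an upper first molar site 4 weeks after the same extraction with no implant. Periodontal connective tissue (PCT) lay around an upper first molar still in place. The series' design text names mice once for PCT, whereas the sample labels give rat, which was followed here. Each tissue was cut out by laser microdissection and measured on 1 Affymetrix rat GeneChip. The labels do not say how many animals each array pooled.

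With 1 array per tissue, no difference has a replicate check and no test was run. The median intensity was 56.5 in PICT, 57.4 in OMCT and 34.3 in PCT, so every difference below is relative: the log2 value, taken after adding a pseudocount of 8.56, minus the median of its array. On this scale the PCT array was raised by 0.60 against PICT and by 0.62 against OMCT. To count as higher or lower, a gene had to differ by at least 1 log2 unit (2-fold) and reach the median of all probe sets on the array where it was higher; this 2-fold limit is called the line below. Probe sets of 1 gene differed from each other by an SD of 0.49 in each comparison. The 3'/5' ratio of the Hk1 control, which grows as RNA shortens, was 1.58 in PICT, 1.97 in OMCT and 2.80 in PCT, and its part in the differences from PCT was not tested. In sections of mixed tissue, fewer cells of a type and less RNA per cell cannot be told apart. Genes of connective tissue (Col1a1, Col1a2, Col3a1) and of epithelium (Krt5, Krt14) both lay above percentile 99 of all 3 arrays.

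Class I molecules pair a polymorphic heavy chain with beta-2 microglobulin and show cytosolic peptides to CD8 T cells. The peptides are cut by the proteasome, carried into the endoplasmic reticulum by the TAP transporter and loaded with the help of tapasin, calreticulin and calnexin. Class II molecules are built around the invariant chain Cd74, travel to endosomes where cathepsin S and other proteases cut Cd74 away, and receive their peptide with the help of the DM proteins. Class II is constitutive in dendritic cells, macrophages and B cells, and interferon gamma induces it in other cells through Ciita, while Nlrc5 plays the matching part for class I genes. The oral mucosa faces a dense flora, and antigen-presenting cells lie both in its epithelium and in the tissue beneath.

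PICT had 13 of the 40 members higher than PCT, or 32.5%, where 3.98% of all genes were higher. Tapbp alone was lower, 2.5% of the members against 3.37% of all genes. The median difference of the members was 0.53, against -0.13 over all genes. PICT and OMCT were closer: 3 members were higher in PICT, or 7.5% against 4.15% of all genes, and 3 were lower, against 4.46% of all genes, with a median of 0.07 against -0.04. OMCT had 9 members higher than PCT, or 22.5% against 5.66%, and 0 lower against 4.81%, with a median of 0.46 against -0.08. In these comparisons 36, 35 and 34 of the 40 members passed the level filter, as did 9563, 9550 and 9641 of the 14217 genes. RT1-A, RT1-A3, RT1-N2 and Cd80 did not pass it in any comparison. PICT minus PCT and OMCT minus PCT share the PCT array, and as deposited, without the medians subtracted, 22 and 20 members were higher and 0 lower in both.

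**Figure D1:**
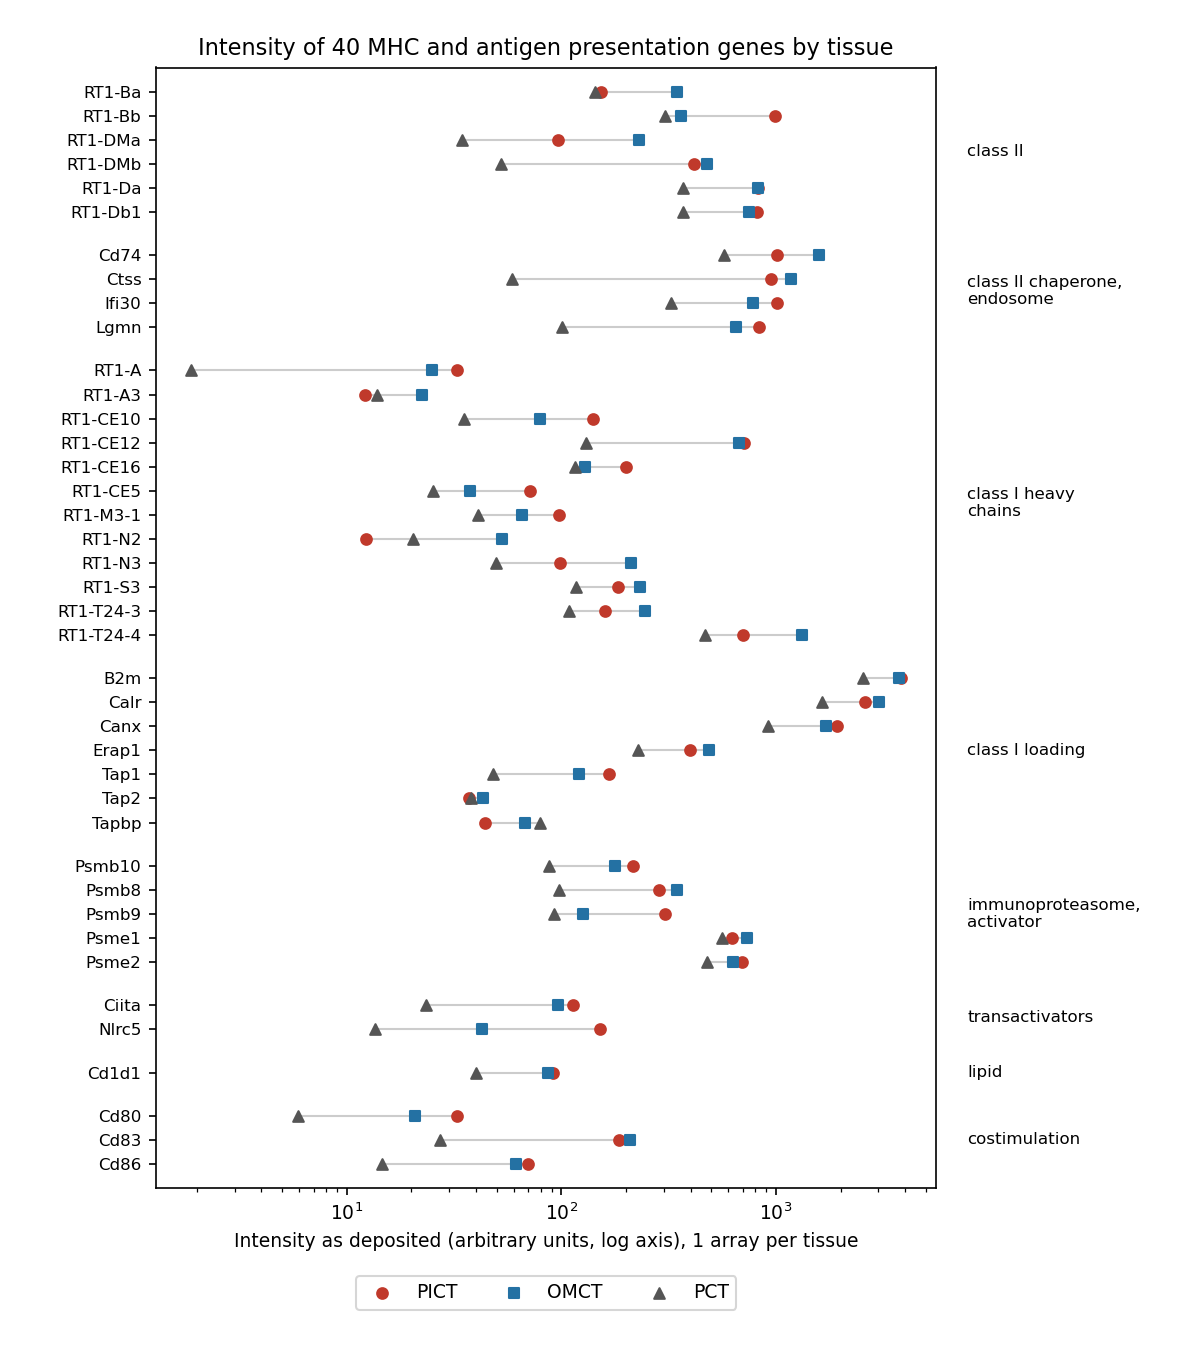
Deposited intensity (log axis) of the 40 members, grouped by role, with 1 point per array: PICT (red circles), OMCT (blue squares) and PCT (grey triangles); the line spans the 3 values. PCT is the lowest array for most members, by wide factors for Ctss (59.1), RT1-DMb and Lgmn and for the dim RT1-A (1.89), while Tapbp is highest in PCT (79.8). The PCT array also has the lowest median over all probe sets (34.3, against 56.5 in PICT and 57.4 in OMCT).

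**Figure D2:**
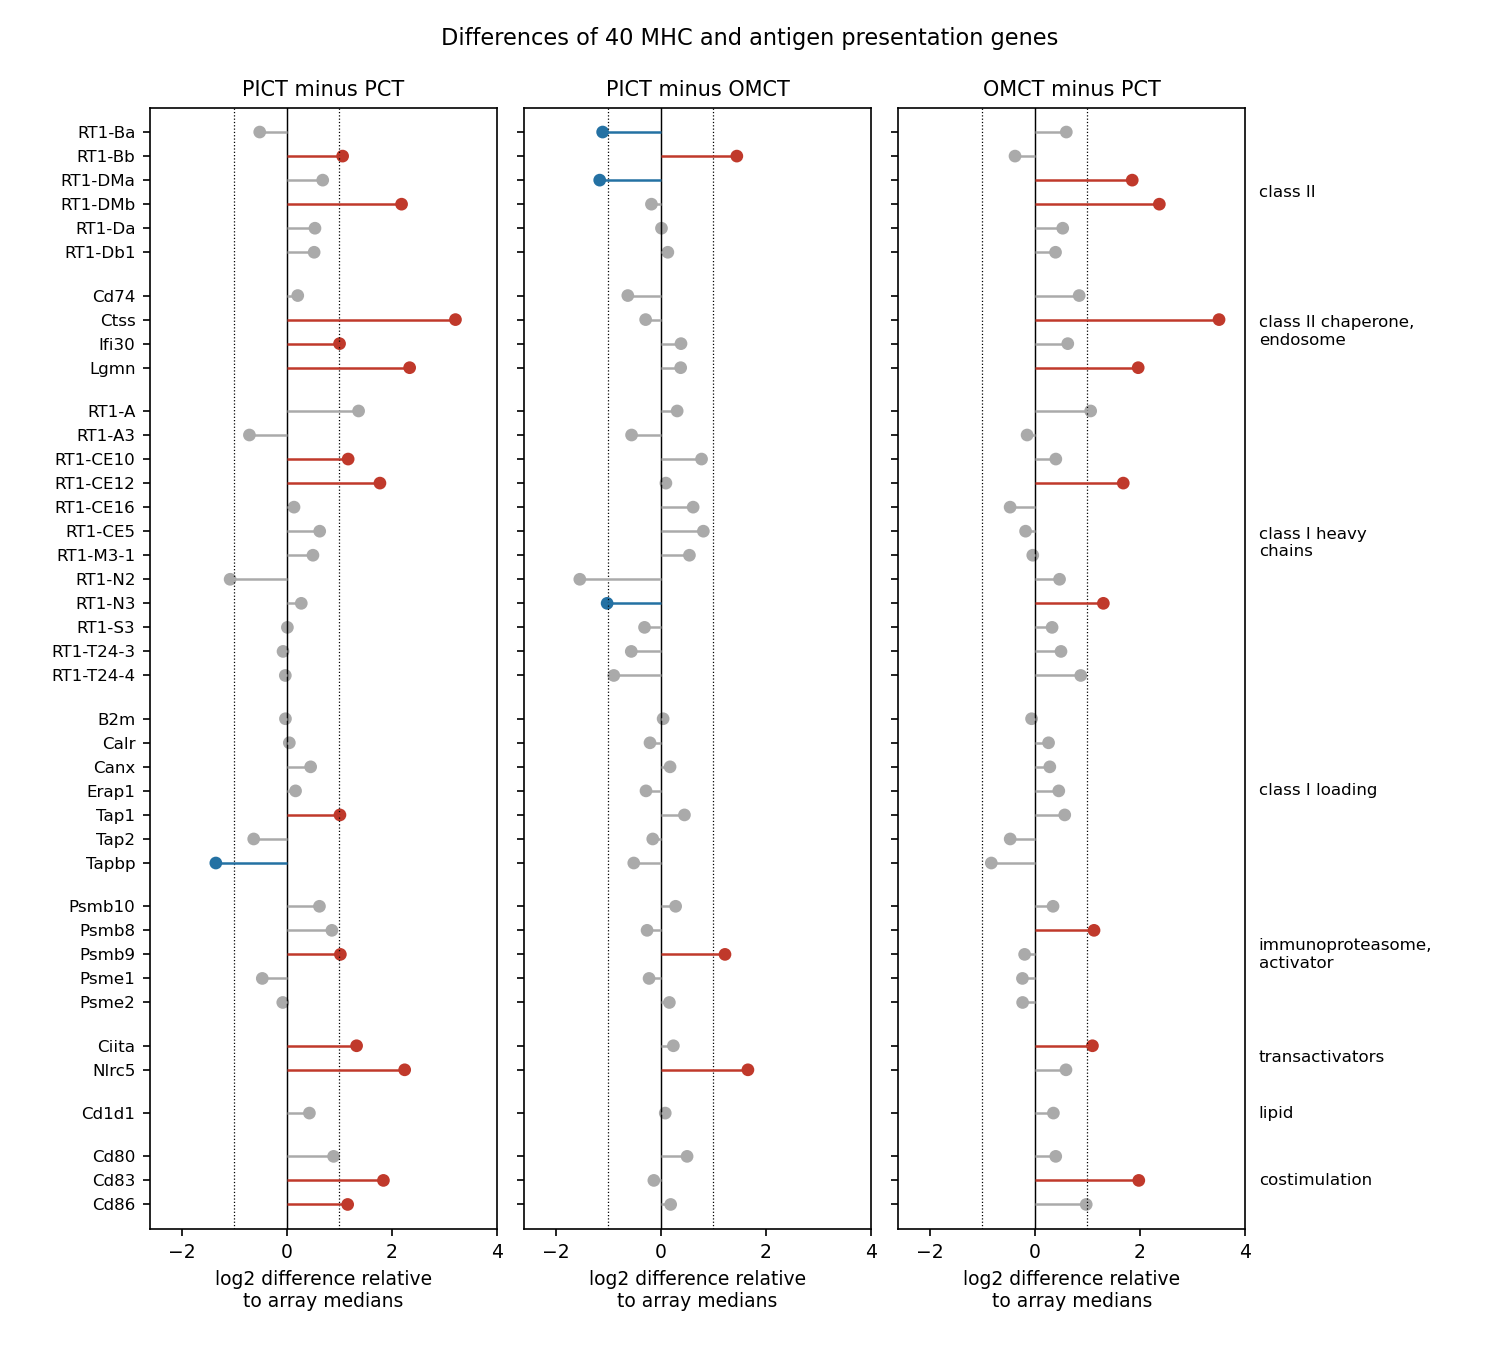
Relative log2 difference of each member in the 3 comparisons, with dotted lines at 2-fold; red marks members counted higher, blue members counted lower and grey all others, including 4 differences past 2-fold on arrays where the gene was under the median (RT1-A and RT1-N2). Ctss has the longest bars against PCT (3.22 in PICT and 3.51 in OMCT), and the middle panel has few bars past 2-fold.

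The class II group had 6 measured genes: RT1-Da and RT1-Db1, the alpha and beta chains that correspond to human DR, RT1-Ba and RT1-Bb, which correspond to DQ, and RT1-DMa and RT1-DMb, which correspond to DM. The DR-type chains differed by less than 2-fold between the tissues. RT1-Da had an intensity of 823 in PICT, 826 in OMCT and 368 in PCT, a relative difference of 0.54 in PICT and 0.53 in OMCT against PCT, and of 0.01 between PICT and OMCT. RT1-Db1 had 814 in PICT, 751 in OMCT and 368 in PCT, with differences of 0.53 in PICT and 0.39 in OMCT against PCT, and 0.14 between PICT and OMCT. Both chains of the DR-type pair thus had near-equal values in PICT and OMCT and lower ones in PCT, by an amount that fell under the rule of size. As deposited they would pass it, at 1.14 and 1.13 for PICT against PCT.

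The promoters of these class II genes are shown because their chains are the molecules on which the rest of the pathway acts, and because class II promoters are known for a shared set of boxes, among them the X box, read by the RFX complex, and the Y box, read by NF-Y, on which Ciita docks. The windows run from 250 bases before to 50 bases after the RefSeq gene start in build GRCr8, written 5' to 3' on the gene's strand. Capitals mark the X1 core AGCAAC and the Y box CTGATTGG. They lie at chr20:4515165-4515464 on the plus strand for RT1-Da, chr20:4560113-4560412 on the minus strand for RT1-Db1 and chr20:4604069-4604368 on the minus strand for RT1-Bb.
RT1-Da: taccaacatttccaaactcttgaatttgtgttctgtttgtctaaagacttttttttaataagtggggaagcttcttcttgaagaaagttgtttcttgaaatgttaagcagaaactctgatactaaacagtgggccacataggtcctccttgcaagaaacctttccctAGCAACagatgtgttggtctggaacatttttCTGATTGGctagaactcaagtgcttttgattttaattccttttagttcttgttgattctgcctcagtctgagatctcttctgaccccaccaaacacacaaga
RT1-Db1: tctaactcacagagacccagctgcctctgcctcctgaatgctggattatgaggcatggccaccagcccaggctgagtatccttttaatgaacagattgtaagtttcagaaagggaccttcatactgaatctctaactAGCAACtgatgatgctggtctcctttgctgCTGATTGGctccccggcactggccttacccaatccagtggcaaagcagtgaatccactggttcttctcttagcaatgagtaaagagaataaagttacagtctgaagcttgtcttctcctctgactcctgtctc
RT1-Bb: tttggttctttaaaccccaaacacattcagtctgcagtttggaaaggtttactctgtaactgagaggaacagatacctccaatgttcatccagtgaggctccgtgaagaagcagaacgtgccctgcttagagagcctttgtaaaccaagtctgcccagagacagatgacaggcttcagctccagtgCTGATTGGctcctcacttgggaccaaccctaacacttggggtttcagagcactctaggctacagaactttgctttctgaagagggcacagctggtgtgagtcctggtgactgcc

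Searched on both strands, the Y box CTGATTGG stood in the windows of RT1-Ba, RT1-Bb, RT1-Da and RT1-Db1, 4 of the 5 class II genes with a window, and in those of 5 of 11 class I heavy chain genes, where 3.5% of all 33469 windows held it. In RT1-Da it began 52 bases before the start, in RT1-Bb 64 and in RT1-Db1 83 bases before it. The X1 core AGCAAC alone is common, in 14.7% of all windows. An AGCAAC followed after 15 to 45 bases by ATTGG, the core within the Y box, was found in 0.478% of all windows and in those of RT1-Da and RT1-Db1, with 28 and 27 bases between the cores, and of Lgmn on the opposite strand. RefSeq windows were given for 35 of the 40 members. A match is a description of letters and not a site, and the class II genes with these letters did not share one pattern across the tissues.

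The DQ-type genes differed between PICT and OMCT, in a way that depended on the probe set. RT1-Ba had 153 in PICT, 345 in OMCT and 143 in PCT, so OMCT was highest, and PICT differed from OMCT by -1.11 and from PCT by -0.51. Its second probe set, 1377334_at, had 33.3 in PICT, 195 in OMCT and 19.9 in PCT, again highest in OMCT. The other RT1-Ba probe sets were dim, under percentile 30 on every array.

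RT1-Bb was read by a pair of bright probe sets that went opposite ways. Probe set 1371033_at had 987 in PICT, 361 in OMCT and 304 in PCT, a difference of 1.45 between PICT and OMCT. Probe set 1371065_at had 203 in PICT, 534 in OMCT and 100.1 in PCT, a difference of -1.34. The first was highest in PICT and the second, like RT1-Ba, in OMCT. Averaged over its probe sets, RT1-Bb differed by 0.06 between PICT and OMCT, so no direction is given for this gene there, although its brightest probe set puts it among the 3 members counted higher. Against PCT both probe sets were higher in PICT, by 1.07 and 0.36.

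**Figure D3:**
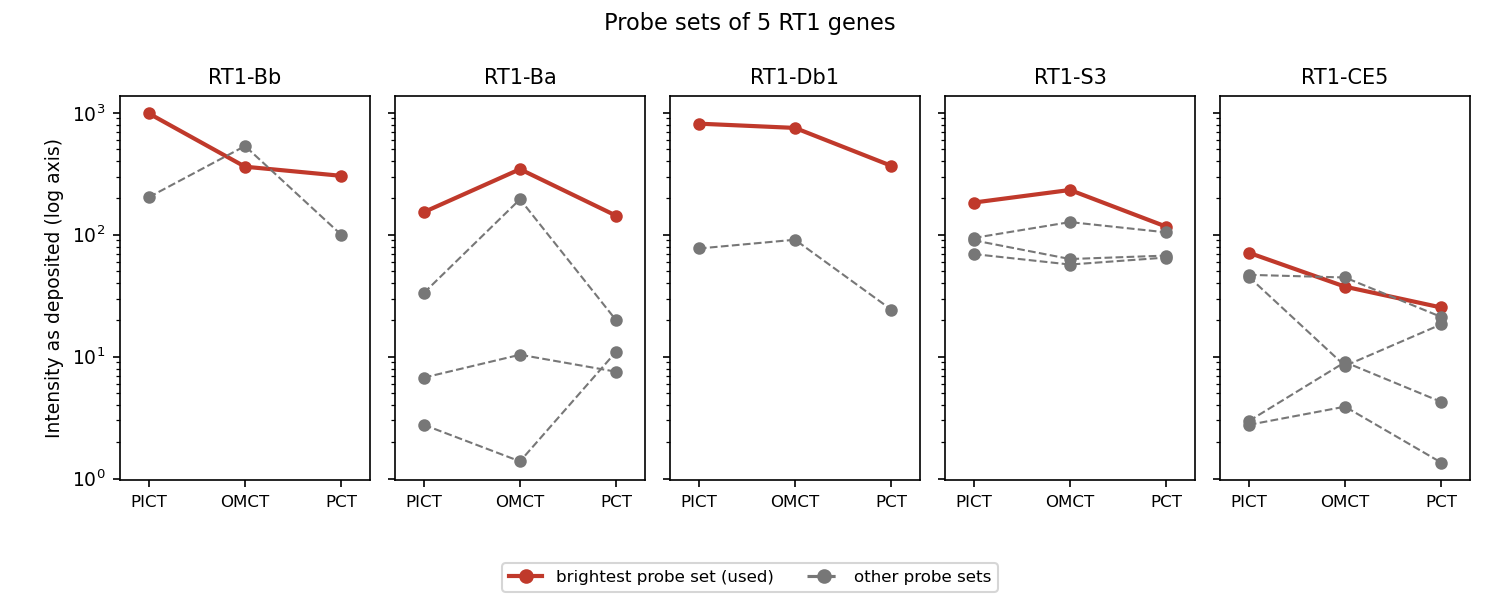
Deposited intensity (log axis) of each probe set of 5 RT1 genes on the PICT, OMCT and PCT arrays; the red line is the brightest probe set, which stood for the gene, and dashed grey lines are the others. The RT1-Bb lines cross between PICT (987 and 203) and OMCT (361 and 534), while both RT1-Db1 lines are lowest in PCT (368 and 24.4).

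The DM genes, whose product exchanges the invariant chain fragment for antigenic peptide, stood out within class II. RT1-DMb had 413 in PICT, 475 in OMCT and 52.2 in PCT, a difference of 2.19 for PICT and 2.37 for OMCT against PCT. RT1-DMa had 96.9 in PICT, 231 in OMCT and 34.5 in PCT. OMCT was highest for RT1-DMa, with differences of 0.69 in PICT and 1.85 in OMCT against PCT, and of -1.16 in PICT against OMCT. PICT and OMCT differed by -0.18 for the partner RT1-DMb. Of the 6 class II genes, 2 were higher in PICT than in PCT and 0 lower (RT1-Bb and RT1-DMb), with a median of 0.62, and 2 were higher in OMCT than in PCT and 0 lower (both DM genes), with a median of 0.56. Both counts depended on the probe sets of the DQ-type genes. In PICT minus PCT, RT1-Bb gave 1.07 on the probe set used and 0.36 on 1371065_at. In OMCT minus PCT, RT1-Ba gave 0.60 on the probe set used and 2.22 on 1377334_at. RT1-Bb gave -0.38 on the probe set used and 1.70 on 1371065_at.

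Of the genes that serve class II in the endosome, the proteases were set further apart from PCT than the chaperone. Ctss, cathepsin S, which makes the last cuts in the invariant chain, had 947 in PICT, 1175 in OMCT and 59.1 in PCT. Its relative level was 9.30-fold that of PCT in PICT and 11.4-fold in OMCT, the largest differences of any member. Lgmn, the asparaginyl endopeptidase legumain, had 833 in PICT, 647 in OMCT and 101 in PCT, with differences of 2.35 and 1.97 against PCT. Its second, dim probe set, 1380609_at, had 20.9 in PICT, 2.57 in OMCT and 0.739 in PCT, and the mean of both gave 1.70 for PICT and 0.80 for OMCT against PCT, so the count for OMCT rests on the bright probe set. PICT and OMCT differed by -0.29 for Ctss and 0.38 for Lgmn, both under 2-fold.

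Ifi30, the thiol reductase that opens disulphide bonds of antigens, had 1011 in PICT, 783 in OMCT and 325 in PCT. Its difference of 1.01 between PICT and PCT was the smallest counted in that comparison, and that of 0.62 between OMCT and PCT was not counted. Cd74, the invariant chain, had 1009 in PICT, 1586 in OMCT and 569 in PCT. It was highest in OMCT, with differences of 0.21 in PICT and 0.84 in OMCT against PCT and of -0.63 in PICT against OMCT, none of them 2-fold. The invariant chain and the DR-type chains, which are made together with it, thus lay under the line where Ctss, Lgmn and RT1-DMb were far past it.

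A wider list of 13 measured lysosomal genes had 5 higher in PICT than in PCT and 0 lower, with a median of 0.46. Cst7 (cystatin F, an inhibitor of leukocyte cathepsins) differed by 2.38, Ctsz (cathepsin Z) by 2.02 and Unc93b1 (which brings Toll-like receptors to endosomes) by 1.96. In OMCT minus PCT 5 were higher and 0 lower (median 0.73), and in PICT minus OMCT 0 were past the line in either direction (median -0.09).

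Macrophage markers were set apart from PCT in both other tissues. Of 15 measured genes of this list, PICT had 10 higher and 0 lower than PCT, with a median of 1.66. In OMCT minus PCT 14 were higher and 0 lower, with a median of 2.52, and in PICT minus OMCT 0 were higher and 5 lower, with a median of -0.57. The summed intensity of the list was 11745 in PICT, 13792 in OMCT and 1350.2 in PCT, and 13, 14 and 8 of its genes lay at or above the array median. Tyrobp, the signalling adaptor of myeloid cells, differed by 3.79 in PICT and 3.62 in OMCT against PCT. The part of these markers in the differences of Ctss, Lgmn, RT1-DMb and the other members was not tested.

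Lists of the other professional antigen-presenting cells gave few counted differences, but most of their genes were too dim to be counted. Of the 14 listed B cell and plasma cell genes, 10 were measured and 3 passed the level filter in each comparison. Of the 18 listed dendritic cell genes, 11 were measured, and 4 passed it in PICT minus PCT and 5 in each other comparison. These lists thus cannot show whether such cells differed between the tissues. The B cell genes Ms4a1 (CD20) and Cd79b (a chain of the B cell receptor) lay under percentile 30 on every array, with Ms4a1 at 4.71 in PICT, 3.14 in OMCT and 2.12 in PCT. Over the 10 measured B cell and plasma cell genes, 0 counted as higher or lower in PICT than in PCT (Cd79b, at -1.24, was too dim), and the summed intensity was 2688 in PICT, 2042 in OMCT and 2296 in PCT, most of it from Sdc1, which epithelium also makes. Of 11 dendritic cell genes, PICT had 1 higher and 1 lower than PCT (median -0.12) and 0 higher and 1 lower than OMCT (median 0.01), and OMCT had 1 higher and 1 lower than PCT (median 0.16). The higher gene was Itgax (CD11c, also made by macrophages), with 335 in PICT and 266 in OMCT, against 31.5 in PCT. Epcam, a gene of Langerhans cells that epithelium also makes, was lower in both, with 758 in PICT and 460 in OMCT, against 1015 in PCT. Fscn1, which bundles actin in mature dendritic cells and other cells, differed by -1.12 between PICT and OMCT. Lamp3 and Ccl22, genes of mature dendritic cells, lay at or under percentile 20 on every array. The summed intensity of the dendritic cell list was 1609 in PICT, 1589 in OMCT and 1499.7 in PCT, most of it from Epcam and Fscn1.

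Fibroblast, neutrophil, keratinocyte and endothelial lists moved too. Of 11 fibroblast genes, OMCT had 7 higher and 0 lower than PCT (median 1.27), led by Thy1 at 2.60 and Pdgfra at 2.24. PICT had 2 higher and 2 lower than PCT (median -0.01), and 0 higher and 4 lower than OMCT (median -0.57), with Dpt, a dermal matrix protein, at -3.74. Of 9 neutrophil genes, PICT had 6 higher than PCT and 6 higher than OMCT, with 0 lower in either, and the summed intensity was 6873 in PICT, 1827 in OMCT and 885 in PCT. The 13 keratinocyte genes had a median of -0.39 in PICT and -1.14 in OMCT against PCT, and the 10 endothelial genes one of -1.01 in PICT and 0.16 in OMCT. In PICT minus OMCT, 6 keratinocyte genes were higher and 1 lower (median 0.69). Of the endothelial genes 0 were higher and 6 lower there (median -1.25). The part of these cells in the members' differences was not tested.

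**Figure D4:**
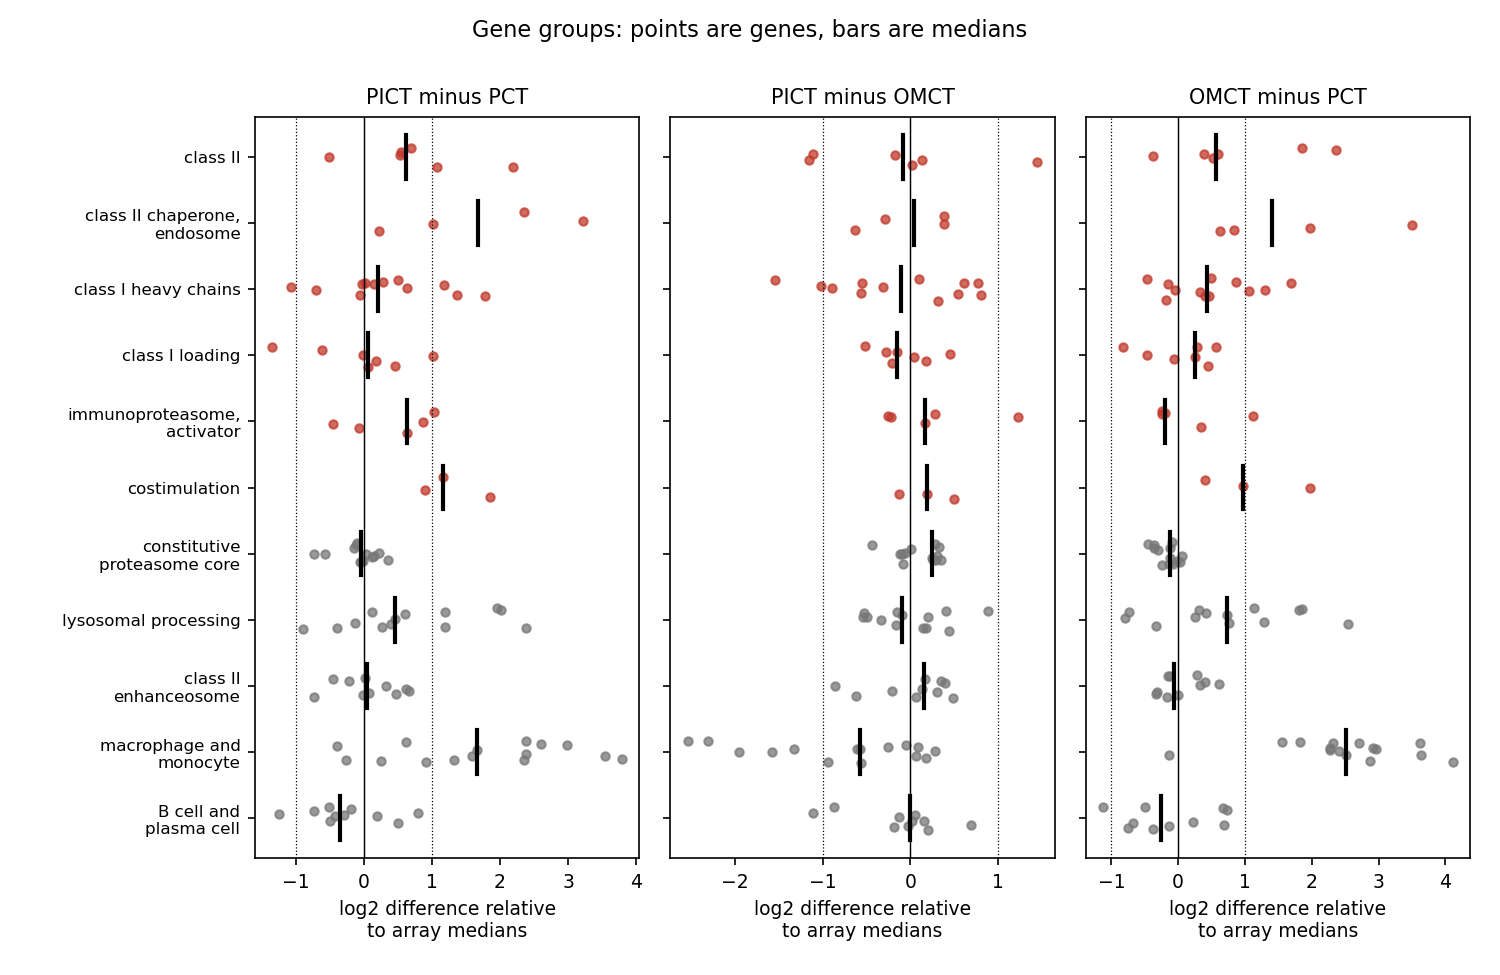
Relative log2 differences of the genes of 6 member groups (red) and 5 other lists (grey) in the 3 comparisons, with a black bar at each group's median and dotted lines at 2-fold. Each panel has its own range. From left to right the macrophage list has medians of 1.66, -0.57 and 2.52, while the constitutive proteasome core stays between -0.74 and 0.35 in every comparison.

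Class I heavy chains had 12 measured genes. RT1 class I loci are closely alike in sequence, 5 of the 12 were read by probe sets whose ID marks shared or cross-reacting probes (_s_at or _x_at), and counts for a single locus are therefore uncertain. RT1-CE12 (probe set 1388236_x_at) had 712 in PICT, 674 in OMCT and 129.7 in PCT, a difference of 1.78 for PICT and 1.68 for OMCT against PCT. RT1-CE10 (1388203_x_at) had 141 in PICT, 79.8 in OMCT and 35.0 in PCT, with 1.17 for PICT against PCT. RT1-CE12 was thus high in PICT and OMCT alike, while RT1-CE10 lay in between in OMCT, at 0.40 against PCT.

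RT1-N3, a nonclassical class I gene, was highest in OMCT. It had 98.5 in PICT, 212 in OMCT and 49.5 in PCT, with differences of -1.02 in PICT against OMCT and of 1.30 between OMCT and PCT. RT1-T24-4 had 699 in PICT, 1325 in OMCT and 465 in PCT, and at -0.89 between PICT and OMCT it was the nearest to the line among the uncounted members bright enough to be counted. RT1-T24-3 had 160.3 in PICT, 244 in OMCT and 108 in PCT. RT1-S3 had 184, 233 and 117, also with OMCT highest, and neither differed by 2-fold. For RT1-S3 the order depended on the probe set. As deposited, probe set 1388212_a_at was also highest in OMCT (94.1 in PICT, 127 in OMCT and 105 in PCT). By contrast, 1371123_x_at (69.4, 57.0 and 65.0) and 1388213_a_at (90.0, 63.2 and 67.5) were highest in PICT as deposited and lowest in OMCT. Relative to the array medians, all of these other RT1-S3 probe sets were highest in PCT. PICT minus PCT was -0.74 for 1388212_a_at, -0.52 for 1371123_x_at and -0.23 for 1388213_a_at. OMCT minus PCT was -0.36, -0.79 and -0.71 in the same order.

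RT1-CE5 was highest in PICT, as was RT1-M3-1, a nonclassical gene that presents formylated bacterial peptides in rodents. RT1-M3-1 had 97.8 in PICT, 65.3 in OMCT and 40.9 in PCT, with differences of 0.50 for PICT against PCT and 0.55 for PICT against OMCT. RT1-CE5 had 71.2 in PICT, 37.5 in OMCT and 25.3 in PCT, and RT1-CE16 had 200.0 in PICT, 129 in OMCT and 116 in PCT. Neither was past the line in any comparison.

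RT1-A, RT1-A3 and RT1-N2 were dim. RT1-A had 32.5 in PICT, 25.0 in OMCT and 1.89 in PCT, RT1-A3 had 12.2 in PICT, 22.4 in OMCT and 13.8 in PCT, and RT1-N2 had 12.3 in PICT, 52.9 in OMCT and 20.3 in PCT, each under its array's median throughout. Over the 12 heavy chain genes, 2 were higher in PICT than in PCT and 0 lower (median 0.21). PICT minus OMCT had 0 higher and 1 lower (median -0.11), and OMCT minus PCT had 2 higher and 0 lower (median 0.43). The shares higher were thus 16.7%, 0% and 16.7%, against 3.98%, 4.15% and 5.66% of all genes. The shares lower were 0%, 8.33% and 0%, against 3.37%, 4.46% and 4.81%. The level filter was passed by 9, 9 and 8 of the 12 genes.

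A further 6 probe sets carried several RT1 symbols, so their signal belongs to no single gene and they entered no count. Probe set 1371078_at, which names RT1-A and 4 RT1-CE genes, had 192 in PICT, 94.2 in OMCT and 106 in PCT, a difference of 0.98 between PICT and OMCT. Probe set 1370428_x_at, which names RT1-A2 and RT1-A3, had 129 in PICT, 241 in OMCT and 105 in PCT, a difference of -0.84. These class I probe sets ran opposite ways between PICT and OMCT. Probe set 1381029_at, for RT1-T24-3 and RT1-T24-4, had 78.6 in PICT, 45.3 in OMCT and 50.8 in PCT. Its relative difference was -0.05 for PICT and -0.76 for OMCT against PCT. It was thus lowest in OMCT, whereas the single-symbol probe sets of both genes were highest in OMCT. The remaining 3 lay under percentile 41 on every array.

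The light chain and the chaperones of class I loading differed little. B2m, beta-2 microglobulin, had 3802 in PICT, 3736 in OMCT and 2537 in PCT, with relative differences of -0.02 in PICT and -0.07 in OMCT against PCT, and 0.05 between PICT and OMCT. Its probe set lay above percentile 99 of every array, and its second probe set, 1371440_at, with 1287 in PICT, 1303 in OMCT and 747 in PCT, differed by no more than 0.18. On the probe sets used, Calr (calreticulin), Canx (calnexin) and Erap1 (the aminopeptidase that trims peptides in the endoplasmic reticulum) differed by -0.28 to 0.46. For PICT against PCT, Canx gave 0.46 on the probe set used, 0.17 on 1371686_at and -0.41 on 1371687_at, all bright.

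The peptide transporter chains and tapasin did not move as 1 unit. Tap1 had 166 in PICT, 121 in OMCT and 48.1 in PCT, with 1.02 for PICT against PCT, just past the line, and 0.57 for OMCT. Its partner chain Tap2 had 37.3 in PICT, 43.1 in OMCT and 38.0 in PCT, with -0.62 for PICT against PCT, though dim in PICT and OMCT. Tapbp (tapasin, which bridges TAP and the heavy chain) had 44.2 in PICT, 67.8 in OMCT and 79.8 in PCT. It was the sole member highest in PCT even as deposited, and its relative differences were -1.35 for PICT against PCT and -0.83 for OMCT against PCT. As deposited the Tapbp difference of -0.74 for PICT against PCT was under 2-fold.

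The immunoproteasome subunits replace the catalytic subunits of the standard proteasome in immune cells and after interferon. Psmb9 (LMP2) had 303 in PICT, 127 in OMCT and 92.1 in PCT. PICT was set apart from both, by 1.03 against PCT and 1.22 against OMCT, and OMCT differed from PCT by -0.20. Psmb8 (LMP7) had 284 in PICT, 347 in OMCT and 97.3 in PCT, with 0.86 for PICT and 1.12 for OMCT against PCT and -0.26 between PICT and OMCT. Psmb9 thus had its high value in PICT and Psmb8 high values in PICT and OMCT.

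Psmb10 (MECL-1), the third subunit, had 216 in PICT, 178 in OMCT and 87.1 in PCT, with 0.63 and 0.34 against PCT. The activator chains Psme1 and Psme2 (PA28 alpha and beta), which open the proteasome core, differed by -0.46 to 0.16 in the 3 comparisons. Of 13 measured genes of the constitutive core, 0 were 2-fold higher or lower in any comparison, with medians of -0.04 in PICT and -0.13 in OMCT against PCT and of 0.25 between PICT and OMCT, and Psmb5, the counterpart of Psmb8, differed by at most 0.13 in size. The other 12 class I handling genes, such as Pdia3 and the Sec61 channel, had 0 past the line in PICT minus PCT and PICT minus OMCT and 1 lower in OMCT minus PCT, Rab27a at -1.38.

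The interferon response element is the letters TTTC, any 2 bases, TTTC, searched on both strands. It stood in the windows of 11 of the 35 members that had one (B2m, Tap1, Tap2, Tapbp, Psmb8, Psmb10, Psme2, Ctss, Cd80, RT1-N3 and RT1-S3), and in 3.92% of all windows. The windows of Tap1, Psmb8 and Ctss are shown as examples from the loading complex, the immunoproteasome and the endosomal enzymes, picked with their values known, with the letters in capitals. They lie in build GRCr8 at chr20:4668494-4668793 on the minus strand for Tap1, chr20:4656982-4657281 on the minus strand for Psmb8 and chr2:185775146-185775445 on the plus strand for Ctss.
Tap1: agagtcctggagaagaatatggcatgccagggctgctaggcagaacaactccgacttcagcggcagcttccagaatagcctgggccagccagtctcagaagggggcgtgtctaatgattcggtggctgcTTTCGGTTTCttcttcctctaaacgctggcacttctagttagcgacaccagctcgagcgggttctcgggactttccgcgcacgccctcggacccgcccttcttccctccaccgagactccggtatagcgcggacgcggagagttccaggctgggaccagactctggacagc
Psmb8: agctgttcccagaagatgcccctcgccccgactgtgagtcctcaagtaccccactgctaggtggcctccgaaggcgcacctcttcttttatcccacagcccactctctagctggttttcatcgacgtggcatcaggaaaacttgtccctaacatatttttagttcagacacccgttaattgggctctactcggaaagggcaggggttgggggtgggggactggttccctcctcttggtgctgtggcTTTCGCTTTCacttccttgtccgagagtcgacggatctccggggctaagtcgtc
Ctss: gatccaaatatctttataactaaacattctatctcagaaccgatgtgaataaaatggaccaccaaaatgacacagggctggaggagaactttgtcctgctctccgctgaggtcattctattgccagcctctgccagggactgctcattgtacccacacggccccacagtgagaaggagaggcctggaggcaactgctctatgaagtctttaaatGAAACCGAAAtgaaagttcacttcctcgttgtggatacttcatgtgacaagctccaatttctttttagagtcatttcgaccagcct

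In Tap1 the element began 121 bases and in Psmb8 4 bases before the start, on the gene's strand, and in Ctss it lay on the opposite strand. Tap2 and Tapbp, at -0.62 and -1.35 in PICT minus PCT, hold the same letters. The CRE letters TGACGTCA stood in 1 member window of 36 (2.78%), that of RT1-Ba, against 1.83% of all windows.

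Both transactivators were higher in PICT than in PCT. Nlrc5, which drives class I genes, had 151 in PICT, 42.6 in OMCT and 13.5 in PCT, with differences of 2.25 against PCT and 1.66 against OMCT. With a pseudocount at the median of all values in place of 8.56, these were 1.34 and 1.14, still past the line. PICT was the sole array on which Nlrc5 lay above the array median, and OMCT minus PCT was 0.59. Ciita, which drives class II genes, had 113 in PICT, 96.2 in OMCT and 23.3 in PCT, with 1.33 for PICT and 1.09 for OMCT against PCT and 0.24 between PICT and OMCT. Nlrc5 was thus high in PICT and Ciita in PICT and OMCT. The second Ciita probe set, 1369214_a_at, was dim (18.2 in PICT, 19.0 in OMCT and 9.42 in PCT) and differed by -0.03 for PICT against PCT, and the mean of both gave 0.65. Over the 10 measured genes of the class II enhanceosome on which Ciita acts (such as Rfx5 and Nfya), 0 were past the line in any comparison and the medians were 0.04 in PICT and -0.06 in OMCT against PCT and 0.15 between PICT and OMCT.

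Of the interferon gamma axis, 16 genes were measured. Ifng itself was dim, at 2.57 in PICT, 7.69 in OMCT and 3.54 in PCT. PICT had 3 higher and 0 lower than PCT (median 0.65): Cxcl10, a chemokine that draws T cells, at 2.57, the receptor chain Ifngr2 at 2.11 and the GTPase Gbp2 at 1.06. Against OMCT, 2 were higher and 0 lower (median 0.65), Cxcl10 at 3.63 and the kinase Jak2 at 1.19, and in OMCT minus PCT only Ifngr2 was higher, at 1.36 (median -0.11).

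Among the costimulatory genes, Cd83, a marker of activated dendritic cells that keeps class II on the surface, had 186 in PICT, 208 in OMCT and 27.2 in PCT. Its differences were 1.85 for PICT and 1.98 for OMCT against PCT and -0.13 between PICT and OMCT. Cd86, a ligand of CD28, had 70.0 in PICT, 61.3 in OMCT and 14.5 in PCT, with 1.16 and 0.98 against PCT. Cd86's second probe set gave 0.99 and 0.56, so its PICT value sat at the line. Cd80, the other CD28 ligand, had 32.4 in PICT, 20.8 in OMCT and 5.94 in PCT, below the median of each array. Cd1d1, which presents lipids to NKT cells, had 91.3 in PICT, 86.9 in OMCT and 40.1 in PCT and differed by at most 0.44. Of 12 other measured costimulation and checkpoint genes, Icos (a T cell receptor of the CD28 family) was higher in PICT than in PCT, at 1.14, and Cd276 (B7-H3) was lower, at -1.19.

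Many counted differences lay close to the line. In PICT minus PCT 8 of the 14 counted members lay within 1 probe set SD of it and 6 beyond: Ctss, Lgmn, Nlrc5, RT1-DMb, Cd83 and RT1-CE12. In PICT minus OMCT only Nlrc5 of the 6 lay beyond it, which it did not with the higher pseudocount, and in OMCT minus PCT 6 of 9 did (Ctss, RT1-DMb, Cd83, Lgmn, RT1-DMa and RT1-CE12).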

How the data were processed

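The deposited table holds linear intensities, 1 per probe set and array, for 31099 probe sets; how the authors summarised and scaled the probes was not given in the sources used here. According to the labels' protocols, RNA was purified on RNeasy columns and labelled with a GeneChip 3' IVT kit, which reads near the poly(A) tail. Symbols came from the platform annotation of 2016 (20832 probe sets with 1 symbol, 436 with several, 9831 with none), and 39 of the 40 members matched a RefSeq gene ID of GRCr8, with 0 symbols changed. Values were log2(intensity + 8.56), the 20th percentile of all values, minus each array's median; this understates the differences of dim genes. Python 3.11.15, numpy 2.4.6 and pandas 2.3.3 were used. The code for the calls was run on simulated data, with planted changes in bright probe sets far past 2-fold. Its noise was smaller than the SD between probe sets, so this run cannot show how reliable calls near the line are. All members could be named, and from each other list up to 3 genes past the line with the largest differences and defining markers. Members and lists were chosen with earlier results of these data known. Other scalings, pseudocounts, level filters and probe set choices were tried.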

Additional observations from a re-analysis of the deposited data

How the results depend on the processing

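As deposited, without the array medians subtracted, PICT minus PCT had 22 members higher and 0 lower with a median of 1.14 (class II 1.22, class I heavy chains 0.81), and OMCT minus PCT had 20 higher with a median of 1.08 (class II 1.18, class I heavy chains 1.05). All genes move with this setting: 14.13% were then higher in PICT and 17.59% in OMCT than in PCT. With a pseudocount at the median of all values, 8 members were higher and 0 lower in PICT minus PCT. Of all genes 2.81% were then higher and 0.91% lower in that comparison. Cd86, Ciita, Psmb9, RT1-CE10, Tap1 and Tapbp lost their count there. In PICT minus OMCT 0 members were lower, against 2.64% of all genes, and Ciita also lost its count in OMCT minus PCT. With no filter on level, 2 were lower in PICT minus PCT, where 6.65% of all genes were lower. Under the other alternatives each count of members stayed within 1.5 times and each median within 0.49 of its value, and 0 counted members reversed in sign under any alternative. No alternative took a gene's other probe set by itself, which for RT1-Bb gave -1.34 in place of 1.45 in PICT minus OMCT. Some members had several probe sets at or above the median of a compared array. All their probe sets had the same sign for 4 of 7 such members in PICT minus PCT. In PICT minus OMCT this held for 4 of 8, and in OMCT minus PCT for 3 of 7. Averaging all probe sets of a gene lost 7 of the 29 counted differences (of Ciita, RT1-Bb, RT1-Ba, Tap1 and Lgmn). Leaving out _x_at and _s_at probe sets removed 4 members (RT1-CE10, RT1-CE12, RT1-CE16 and RT1-T24-4). No paired analysis was possible because each tissue had 1 array, and leaving out an array ends the comparisons it enters. The number of arrays limits the precision, and dim members (RT1-A, RT1-A3, RT1-N2, Cd80) have no exact fold.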

Other observations

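Genes of the T cells that read MHC molecules were mostly dim, and the coreceptors differed in pattern. Cd8a, the coreceptor for class I, had an intensity of 103 in PICT, 31.4 in OMCT and 0.407 in PCT, and only PICT lay above its array's median; the relative difference of PICT was 1.50 against OMCT, and 3.04 against PCT, where the intensity lay so far under the pseudocount that the size is not exact. Cd8b, the partner chain, had 18.8 in PICT, 53.0 in OMCT and 1.34 in PCT, so the chains of this coreceptor did not follow each other between PICT and OMCT. Cd4, the coreceptor for class II, which rat macrophages also make, had 157 in PICT, 498 in OMCT and 29.2 in PCT, with differences of -1.60 in PICT against OMCT and of 3.12 between OMCT and PCT. Cd3g had 87.3 in PICT, 49.5 in OMCT and 7.94 in PCT, while Cd3e had 14.3, 17.8 and 7.41. Of 15 measured T and NK cell genes, 3 were higher in PICT than in PCT and 0 lower (median 0.63), PICT minus OMCT had 1 higher and 1 lower (median 0.54), and OMCT minus PCT likewise 1 higher and 1 lower (median 0.28).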
